A study of Mus musculus with 2 samples.

Results

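The mitochondrial ribosomal protein genes were taken as the protein-coding genes of the mm9 annotation whose symbol is Mrpl or Mrps followed by a digit, which gave 77 of 22380 protein-coding genes. Of these, 47 carried a large subunit name (Mrpl) and 30 a small subunit name (Mrps). The series held 2 ATAC-seq libraries, an assay in which a transposase cuts open chromatin, made from organoids of the mouse small intestine (enteroids) grown from crypts of the ileum of mice aged 4 months, of the strain C57Bl6/129sv. The control library came from Taf4 lox/lox enteroids without a Cre transgene, and the Taf4-inactivated library from Taf4 lox/lox enteroids that also carried VilCreERT2, a tamoxifen-inducible Cre driven by the Villin promoter and thus active in intestinal epithelial cells. Enteroids of both genotypes had been treated for 3 days with 1 µM of 4-hydroxytamoxifen (4-OHT), which activates this Cre. Each genotype was 1 library, so no difference between them has a replicate check or a test, and genotype and library cannot be told apart.

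The mitochondrial ribosome translates the few messages encoded by mitochondrial DNA, all of which specify core subunits of the respiratory chain and the ATP synthase. Its RNAs come from the mitochondrial genome, whereas all of its proteins are encoded in the nucleus, made in the cytosol and imported. Many of these proteins have bacterial relatives, others are found in mitochondria alone, and the enterocytes and stem cells of the gut depend on respiration to differing degrees. TAF4 is a subunit of TFIID, the general transcription factor that binds core promoters, so the start sites of these broadly expressed genes were examined in each list of peaks.

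The members often lay head to head with another gene, and the sequence between such starts shows how compact these promoters are. The following stretches lie between the annotated starts of divergent pairs (mm9), and were chosen because the start of a mitochondrial ribosomal protein gene and that of its neighbour are separated by a stretch short enough to be covered by 1 peak. Each reads 5′ to 3′ towards the member named first, none overlaps an annotated exon, and capitals mark matches, on either strand, to the motifs described below.
Mrps18c and Helq, chr5:101227620-101227645, plus strand: gACTTCCGGcccgggaagcgcgggaa
Mrps11 and Mrpl46, chr7:85927953-85928004, plus strand: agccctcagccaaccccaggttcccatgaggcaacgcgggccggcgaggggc
Mrps27 and Ptcd2, chr13:100114634-100114740, plus strand: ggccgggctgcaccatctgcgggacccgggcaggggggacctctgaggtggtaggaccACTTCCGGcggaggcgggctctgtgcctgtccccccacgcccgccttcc
Mrpl43 and Peo1, chr19:45080933-45081047, minus strand: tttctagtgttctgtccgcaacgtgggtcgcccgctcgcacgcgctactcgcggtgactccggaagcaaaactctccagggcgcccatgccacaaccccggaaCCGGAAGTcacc
Mrpl10 and Lrrc46, chr11:96902722-96902873, plus strand: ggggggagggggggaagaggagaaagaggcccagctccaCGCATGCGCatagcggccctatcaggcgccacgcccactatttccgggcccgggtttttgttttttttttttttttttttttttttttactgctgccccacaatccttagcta
Mrps12 and Sars2, chr7:29526840-29527009, minus strand: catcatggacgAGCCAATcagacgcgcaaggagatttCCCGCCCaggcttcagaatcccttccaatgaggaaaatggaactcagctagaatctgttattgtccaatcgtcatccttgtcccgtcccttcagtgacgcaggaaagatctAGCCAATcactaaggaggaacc
Mrpl32 and Psma2, chr13:14705305-14705520, minus strand: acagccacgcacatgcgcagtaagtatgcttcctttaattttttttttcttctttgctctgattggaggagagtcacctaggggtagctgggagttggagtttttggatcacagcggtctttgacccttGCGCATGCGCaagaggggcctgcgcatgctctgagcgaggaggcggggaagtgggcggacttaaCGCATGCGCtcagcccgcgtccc
The next stretches are the 250 bp before the start of members with no divergent partner, Mrps14 and Mrps9 because their peaks ranked among the highest of all members in both lists, and Mrpl28 and Mrpl54 because their peaks moved up furthest in rank after Taf4 inactivation.
Mrps14, before the start, chr1:162125096-162125345, plus strand: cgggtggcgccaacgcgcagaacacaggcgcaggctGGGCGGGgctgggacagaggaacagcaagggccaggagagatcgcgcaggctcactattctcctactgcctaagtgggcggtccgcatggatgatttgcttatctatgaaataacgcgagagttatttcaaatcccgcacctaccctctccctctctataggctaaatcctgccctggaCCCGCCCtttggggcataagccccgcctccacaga
Mrps9, before the start, chr1:42907828-42908077, plus strand: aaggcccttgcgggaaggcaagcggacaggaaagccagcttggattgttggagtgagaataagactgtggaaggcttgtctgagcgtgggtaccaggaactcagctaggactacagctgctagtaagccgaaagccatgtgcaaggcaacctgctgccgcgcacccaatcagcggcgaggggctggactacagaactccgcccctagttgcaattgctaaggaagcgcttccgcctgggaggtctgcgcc
Mrpl28, before the start, chr17:26260215-26260464, plus strand: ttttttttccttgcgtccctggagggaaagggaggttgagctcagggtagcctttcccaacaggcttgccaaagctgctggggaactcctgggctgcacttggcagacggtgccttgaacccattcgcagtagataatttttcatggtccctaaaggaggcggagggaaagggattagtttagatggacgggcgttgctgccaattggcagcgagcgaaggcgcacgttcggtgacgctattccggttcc
Mrpl54, before the start, chr10:80729680-80729929, minus strand: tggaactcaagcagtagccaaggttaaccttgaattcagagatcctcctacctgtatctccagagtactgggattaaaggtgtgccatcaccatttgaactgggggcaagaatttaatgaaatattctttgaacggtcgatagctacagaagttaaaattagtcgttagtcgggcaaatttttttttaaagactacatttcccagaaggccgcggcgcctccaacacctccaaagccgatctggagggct
Mrps14 held 2 matches to the SP/KLF motif, whereas the windows of Mrps9, Mrpl28 and Mrpl54 held none of the 9 motifs searched. No match says only that these letters were not in the window.

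A peak within 1 kb of an annotated start was found for 75 of the 77 members in control (97.4%, against 68.4% of all protein-coding genes) and for 76 after Taf4 inactivation (98.7%, against 65.5%). Related genes had similar shares. In control and after inactivation they were 96.4% and 96.4% for cytosolic ribosomal protein genes, and 97.0% and 100% for mitochondrial translation and assembly factors. Mitochondrial aminoacyl-tRNA synthetases, and 7 mitochondrial ribosomal proteins with other symbols, had 100% in both. Presence was thus not particular to the members. The same 75 members had a peak in both lists. In most cases the peak covered a start. The exceptions were Mrps31, Mrps34 and Mrpl54 in control, whose peaks lay 92, 61 and 51 bp from the nearest start, and Mrpl23 after inactivation, at 25 bp. A single peak was found at 67 of the 75 members in control (89.3%, against 81.7% of protein-coding genes with a peak), and where there were several, the peak with the highest fold represented the gene.

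The members without a peak were Mrpl35 and Mrps36-ps1. At Mrpl35, a large subunit protein with a bacterial relative, the nearest control peak was 7139 bp away, whereas the inactivated list held a peak of 831 bp over the start, chr6:71773479-71774309, with a fold of 2.78. A peak in the inactivated list only was found for 2.9% of protein-coding genes. Mrps36-ps1 is named as a pseudogene but annotated as protein-coding, and had no peak in either list. Its nearest peaks were 7435 bp away in control and 1043 bp away after inactivation, the latter just outside the 1 kb limit. Reads that map to more than 1 place were removed by the authors, so a copy close in sequence to another gene can lose reads. Whether Mrps36-ps1 lost reads in this way was not tested. The 250 bp before the start of Mrps36-ps1 had a GC content of 34%, against a member median of 56%. The observed to expected CpG ratio there was 0.15, against a member median of 0.74. At Mrps36 itself, which is now known as a subunit of the oxoglutarate dehydrogenase complex and carries the ribosomal name for historical reasons, the peak ranked at percentile 96.6 in control and 97.0 after inactivation.

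Because the fold of a peak is taken over the background of its own library, it was compared between libraries only as a percentile rank, with 100 for the highest fold in a list. Here a peak at percentile 90 has a higher fold than 90 percent of all peaks in that library, including those far from genes. The start site peaks of the members had a median percentile of 88.4 in control (quartiles 76.5 and 95.7) and of 87.1 after inactivation (quartiles 76.4 and 95.3). For all protein-coding genes with a peak, the medians were 86.5 and 81.5. Thus the members lay near the median of coding genes in control and above it after inactivation. The top 10% of the list held 34 of 75 members in control (45.3%, against 41.7% of protein-coding genes with a peak) and 32 of 76 after inactivation (42.1%, against 32.1%). Below percentile 50 were 9 members in control (12%, against 18.9%) and 2 after inactivation (2.63%, against 18.4%). Related genes were also rarely that low after inactivation. They were 3 of 81 cytosolic ribosomal protein genes, 0 of 33 translation and assembly factors and 0 of 17 mitochondrial aminoacyl-tRNA synthetases. In the top 10% after inactivation were 30, 15 and 13 of these, in the same order. Of the 7 ribosomal proteins with other symbols, 0 were below percentile 50 and 2 in the top 10%. Neither share was thus particular to the members.

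At the upper end, 16 members were above percentile 95 in both lists, which is 21.3% of the 75 members and compares with 14.1% of protein-coding genes. These were Mrpl17, Mrpl18, Mrpl32, Mrpl39, Mrpl42, Mrpl44, Mrpl48, Mrpl50, Mrps9, Mrps14, Mrps16, Mrps27, Mrps28, Mrps30, Mrps33 and Mrps36. Mrps14, a protein of the small subunit head, had the highest rank in control, with a fold of 3.90 and percentile 99.7, and stood at 99.4 after inactivation. Mrps9, another protein of the head, was at 99.6 and 99.0. Mrps33 held the highest member rank after inactivation, percentile 99.9 with a fold of 6.08, and was at 98.4 in control. The lowest ranks were those of Mrpl28 in control, percentile 2.0 with a fold of 1.71, and Mrps34 after inactivation, percentile 23.2 with a fold of 2.20. The plot of ranks shows that most members gathered in its upper right corner, while a small group with low control ranks lay to the left.

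**Figure D1:**
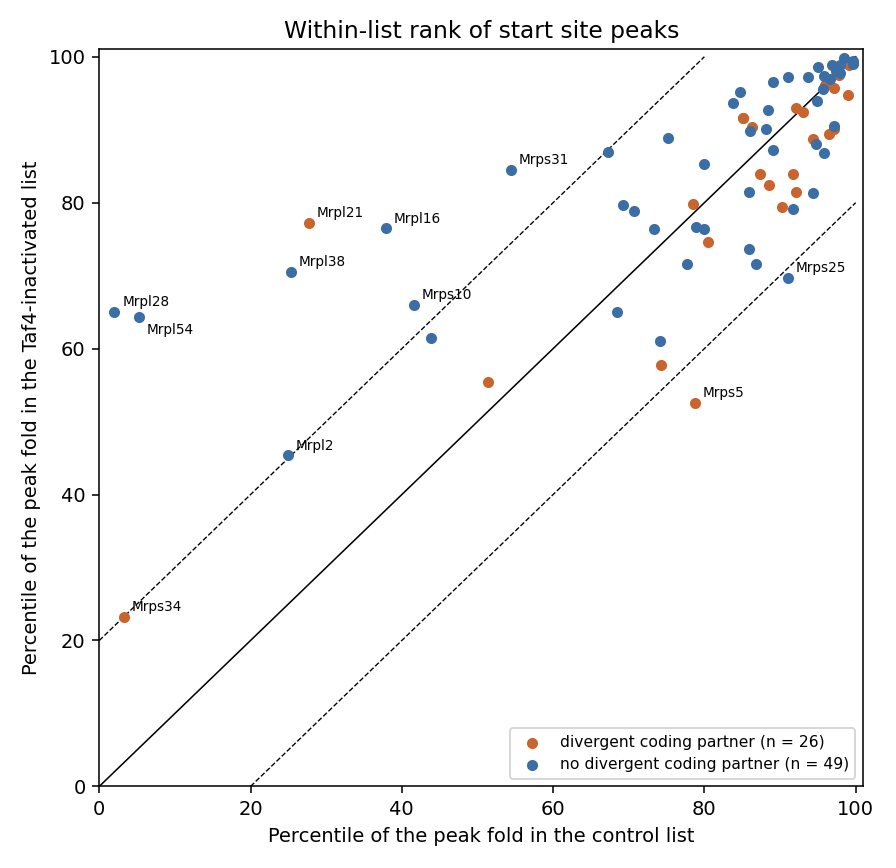
Percentile of the fold of each start site peak among all peaks of the control list (x axis) and of the Taf4-inactivated list (y axis) for the 75 mitochondrial ribosomal protein genes with a peak in both, coloured by whether the gene has a divergent coding partner. The solid line marks equal ranks and the dashed lines a difference of 20 points; the 8 genes at or above the upper dashed line, and the 2 below the lower one, are named, as is Mrps34 just under the upper one.

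Ordered by their place in the ribosome, the members at 1 functional site spanned a wide range of ranks (the genes named here were chosen for their roles, with the values known). At the stalk that recruits translation factors, Mrpl10 was at percentile 92.1 in control and 81.4 after inactivation, Mrpl11 at 79.96 and 85.4, and Mrpl12 at 43.9 and 61.4. Near the peptidyl transferase centre, where peptide bonds form, Mrpl3 was at 73.3 and 76.4, Mrpl16 at 37.9 and 76.5, and Mrpl2 at 24.9 and 45.4. Around the exit of the peptide tunnel, Mrpl17 was at 98.0 and 98.8, Mrpl45 at 89.0 and 96.5, and Mrpl22 at 67.3 and 86.9. Mrpl17 was thus among the highest members and Mrpl2 among the lowest in both lists, although both belong to the large subunit. In the small subunit, Mrps12 of the decoding centre was at 87.4 and 84.0, Mrps2 at 89.1 and 87.2, and Mrps5 at 78.8 and 52.6. Mrps18a, Mrps18b and Mrps18c are paralogues related to the same bacterial protein and are not assigned to a site or subunit here. These 3 stood at 94.4, 88.6 and 99.0 in control and at 81.3, 82.4 and 94.8 after inactivation.

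By symbol, the median percentile was 85.6 in control and 86.9 after inactivation for Mrpl genes, and 91.1 and 87.2 for Mrps genes. The symbol need not match the subunit that holds the protein, and the Mrps genes include Mrps36. Members classed as having a bacterial relative had medians of 86.3 and 84.0, and members classed as specific to mitochondria of 93.7 and 88.9. Mrpl55 was counted with the bacterial relatives, a placement open to doubt, and the medians were not taken without it. Related lists gave the following medians. For 7 ribosomal proteins of mitochondria with other symbols, such as Dap3 and Ptcd3, the median was 90.04 in control and 79.4 after inactivation, the latter below the coding median, with a median rank difference of -5.40. It was 90.1 and 86.6 for translation and ribosome assembly factors of mitochondria, 91.5 and 95.3 for mitochondrial aminoacyl-tRNA synthetases, which charge the tRNAs, and 88.3 and 87.5 for the 84 genes of cytosolic ribosomal proteins. These are medians of lists of very different size, and no difference between the lists was tested.

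The peaks of the members were narrower than those of coding genes as a whole. In control their widths ran from 206 to 2209 bp with a median of 770 bp (quartiles 610 and 1112), against a median of 1049 bp for all protein-coding genes with a peak. After inactivation they ran from 390 to 2110 bp with a median of 796 bp, against 980 bp. Related lists lay below the coding medians too. The medians in control and after inactivation were 797 and 806 bp for translation and assembly factors, and 871 and 883 bp for cytosolic ribosomal proteins. They were 917 and 824 bp for mitochondrial aminoacyl-tRNA synthetases, and 771 and 949 bp for the 7 ribosomal proteins with other symbols. Narrower than the coding median were 54 of 75 members in control and 47 of 76 after inactivation. A width under 1 kb was found for 70.7% of members in control (46.4% of coding genes) and for 64.5% after inactivation (51.8%). The cumulative plot of widths shows that the control curve of the members ran to the left of that of coding genes over most of its range, with less distance between the curves after inactivation.

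**Figure D2:**
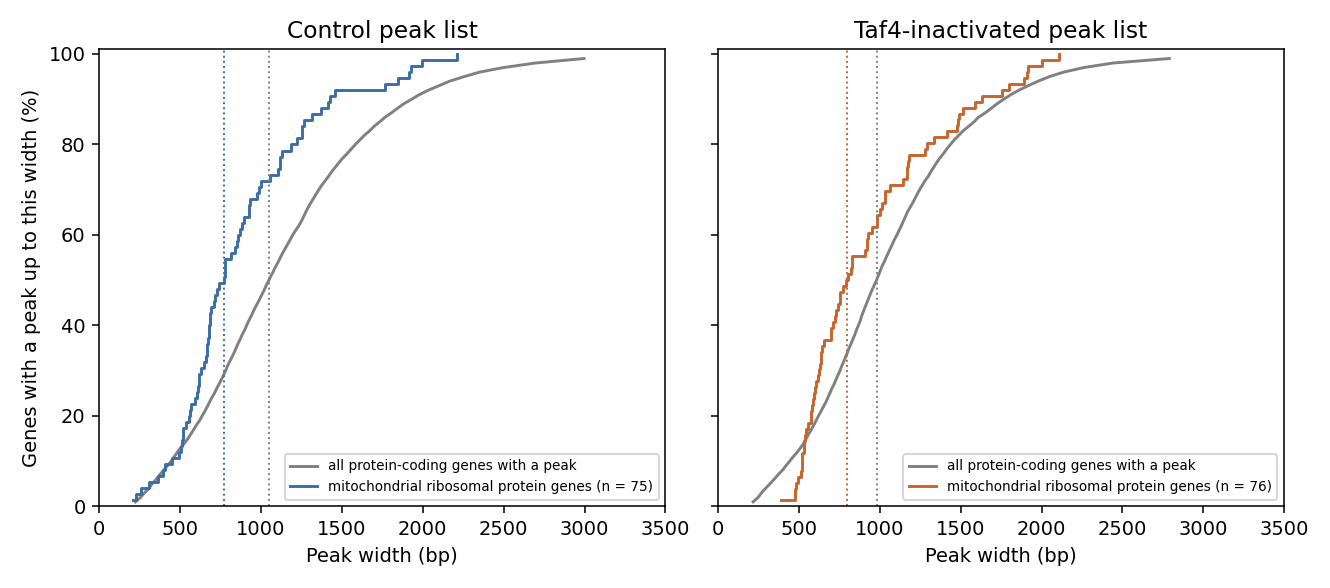
Cumulative share of genes (y axis, percent) by the width of the start site peak (x axis, bp) in the control list (left) and the Taf4-inactivated list (right), for the mitochondrial ribosomal protein genes (coloured steps) and all protein-coding genes with a peak (grey, 1st to 99th percentile). Dotted lines mark the medians, 770 and 1049 bp in control.

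Mrpl34, Mrpl53 and Mrpl40 had the widest control peaks, of 2209, 1996 and 1928 bp, and remained wide after inactivation at 1891, 2001 and 1917 bp. Their ranks were not among the highest, with control percentiles of 77.7, 68.4 and 90.2. The narrowest were Mrpl3, Mrps34 and Mrps31, with 206, 226 and 260 bp in control. At the other end of the scale of fold, the peak of Mrps14 was 816 bp wide in control and 755 bp after inactivation, and that of Mrpl44, an RNase III-like protein of the large subunit, 513 and 494 bp at percentiles 95.04 and 98.6. Peaks of high fold were thus not necessarily wide ones.

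A divergent partner, meaning a protein-coding gene on the opposite strand whose start lies head to head within 1 kb, was found for 26 of the 77 members (33.8%), against 10.3% of all protein-coding genes. This is a property of the annotation and does not depend on the ATAC-seq lists. Among related genes the share was 28.6% for the 7 ribosomal proteins with other symbols, 35.3% for the mitochondrial aminoacyl-tRNA synthetases, 27.3% for the translation and assembly factors and 16.7% for the cytosolic ribosomal proteins. The distance between the starts ran from 3 to 935 bp with a median of 64.5 bp, and was at most 300 bp in 25 of the 26. The shortest distances were those of Mrps21 and C920021L13Rik (3 bp), Mrps18c and the DNA helicase gene Helq (27 bp), Mrps34 and the endonuclease subunit gene Eme2 (29 bp), Mrps7 and Gga3 (32 bp), and Mrpl18 and the chaperonin gene Tcp1 (37 bp).

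The 26 members formed 25 pairs, since Mrpl46 and Mrps11, whose products belong to different subunits, faced each other across 53 bp. A single peak covered both of their starts, chr7:85927603-85928526 in control, and it ranked at percentile 85.1 in control and 91.6 after inactivation. Its width was 924 bp in control and 637 bp after inactivation. Some other partners, named here for their roles, also encode proteins that act in mitochondria. Mrps12 lay 171 bp from Sars2, the mitochondrial seryl-tRNA synthetase, Mrpl43 lay 116 bp from Peo1, which encodes the mitochondrial DNA helicase Twinkle, and Mrps27 lay 108 bp from Ptcd2, a pentatricopeptide repeat protein of mitochondria. Others serve the cytosol or nucleus, such as Fau, which encodes a cytosolic ribosomal protein, 135 bp from Mrpl49, the proteasome gene Psma2, 217 bp from Mrpl32, and the histone chaperone gene Hira, 270 bp from Mrpl40. The start of Mrpl47 overlapped that of Ndufb5, a subunit of respiratory complex I, by 157 bp and was not counted as divergent.

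A single peak covered both starts for 23 of the 26 divergent members in control (88.5%, against 86.4% of divergent coding genes) and for all 26 after inactivation (against 87.7%). The exceptions in control were Mrps34 with Eme2, Mrps5 with Zfp661, and Mrpl41 with Pnpla7. Where a peak is shared, its rank and width describe both genes, and ATAC-seq cannot tell which of the pair they belong to. Divergent members had a median percentile of 90.9 in control and 89.1 after inactivation, and the others of 86.8 and 86.9. Their median widths were 780 and 1030 bp, against 710 and 717 bp for the others. Coding genes as a whole differed in the same direction. Their median percentiles were 92.7 and 89.3 with a divergent partner, and 84.9 and 79.4 without. The widths were 1156 and 1108 bp with a partner, and 1027 and 951 bp without.

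The divergent members differed from the others mainly on the upstream side, where the partner lies. In control, the peak reached a median of 478 bp before the representative start and 345 bp after it in divergent members, and 202 bp before and 426 bp after it in the others. After inactivation these values were 496 and 458 bp, and 218 and 427 bp. Among all protein-coding genes the same contrast was seen in control, with 619 bp before the start in divergent genes and 309 bp in the others. The members without a partner thus had peaks placed mostly downstream of the start. The map of peaks around the start shows this asymmetry gene by gene.

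**Figure D3:**
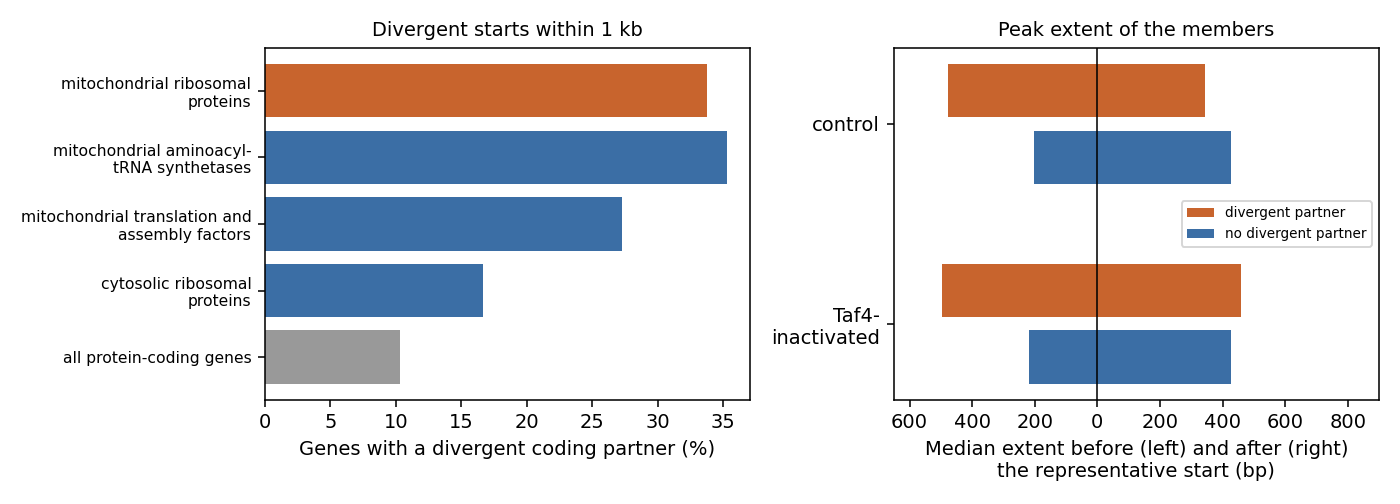
Left, percentage of genes with a divergent coding partner within 1 kb in the mitochondrial ribosomal protein genes (33.8%), related lists and all protein-coding genes (10.3%). Right, median extent of the start site peak before and after the representative start in each list, where divergent members (orange) reached 478 bp upstream in control and the others (blue) 202 bp.

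**Figure D4:**
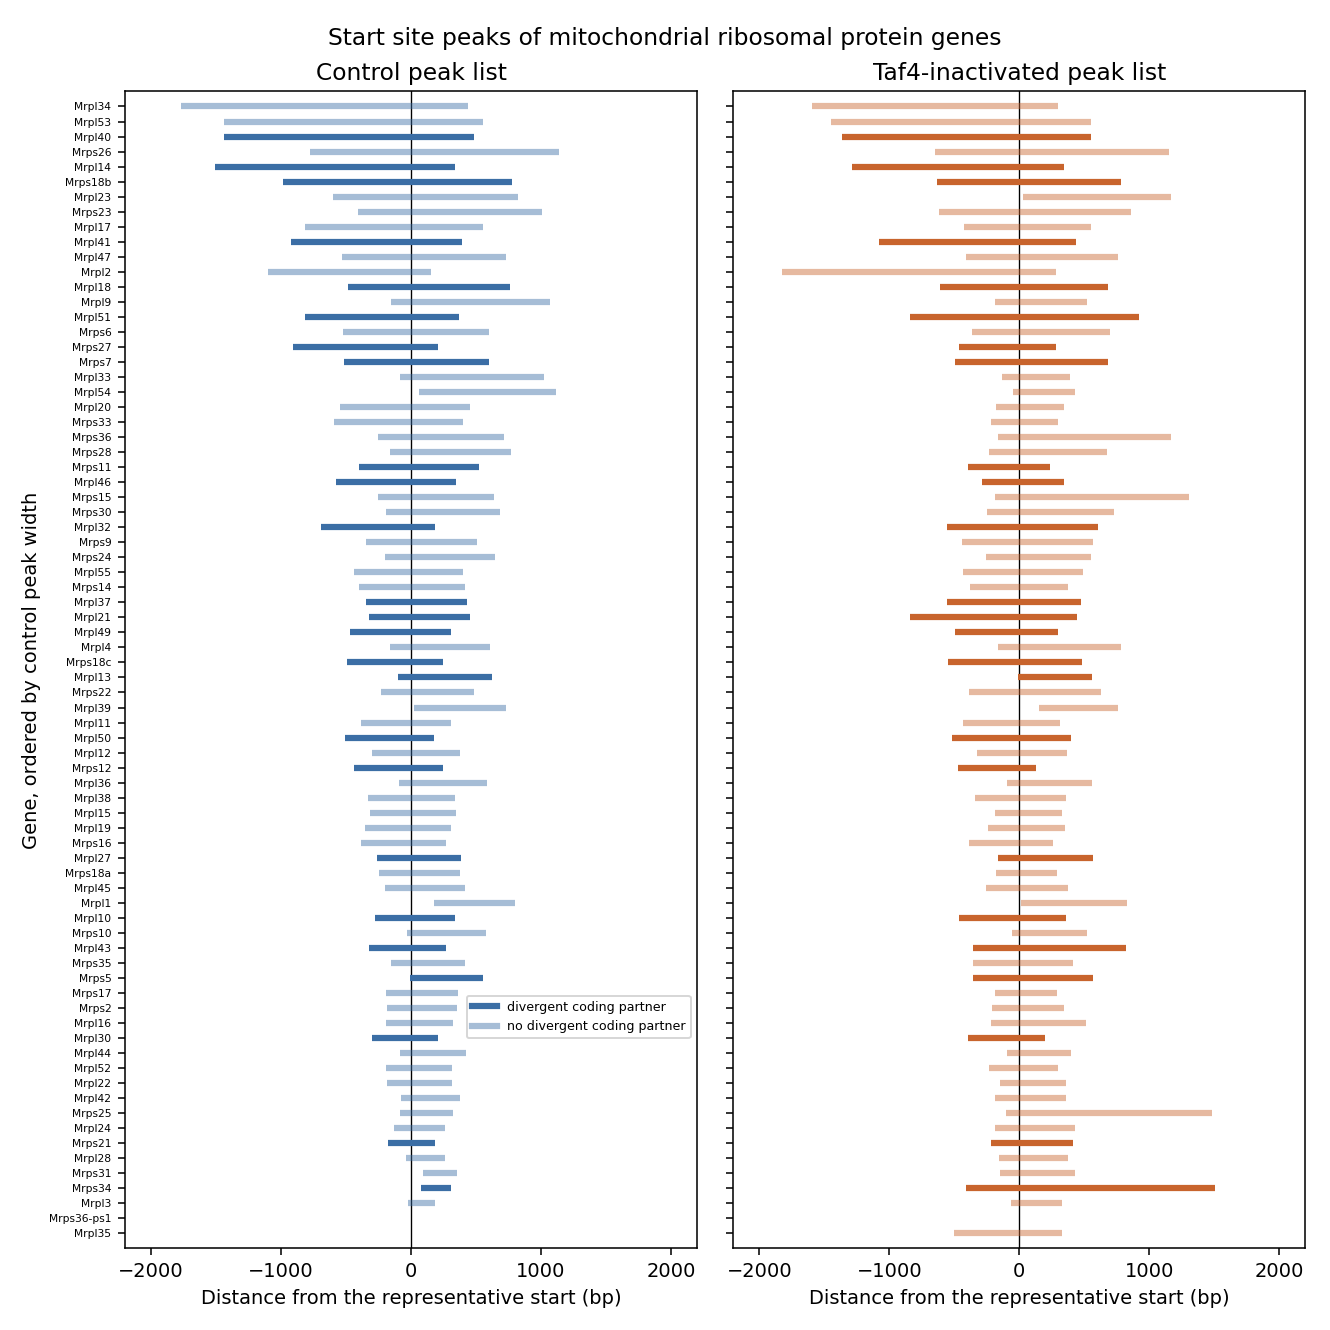
Extent of the start site peak around the representative start (0 on the x axis, bp, transcription to the right) for each mitochondrial ribosomal protein gene in the control list (left) and the Taf4-inactivated list (right), ordered by control width, with dark bars for genes with a divergent coding partner. Mrpl48 is off scale and not drawn; Mrps36-ps1 has no bar in either panel and Mrpl35 none in control.

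Mrpl48 is set apart because it is annotated with several starts far from each other. In control the highest peak, of percentile 99.6, was at the start shared with Rab6, chr7:107755708-107757162. After inactivation the highest, of percentile 99.2, was at another start, chr7:107738533-107740018. Both sites had a peak in both lists: the Rab6 site was at 97.2 after inactivation, and the other at 96.2 in control. Its compared peaks are thus different sites, and Mrpl48 was the 1 member of 75 whose compared peaks did not overlap. For 69 members (92.0%, against 80.1% of coding genes) they overlapped by at least 50% of both peaks.

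Between the lists, most members differed little in rank. The difference, inactivated minus control, had a median of 0.16 percentile points (quartiles -5.7 and 6.3), against a median of -2.77 for all protein-coding genes with a peak in both lists. It was within 5 points for 34 members (45.3%, against 39.6% of coding genes) and under 20 points for 65 (86.7%, against 79.8%). For Mrpl genes the median was 1.76 and for Mrps genes -0.64. The median of the members changed sign with how the peaks were chosen or ranked, so no direction was read from it.

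A rank at least 20 points higher after inactivation was found for 8 members, or 10.7%, against 7.84% of protein-coding genes. It was found for 15 of 80 cytosolic ribosomal protein genes and 1 of 17 mitochondrial aminoacyl-tRNA synthetases. It was found for 0 of 32 translation and assembly factors and 0 of the 7 ribosomal proteins with other symbols. Mrpl28 went from percentile 2.0 to 65.1 with peaks of 305 and 535 bp, and Mrpl54 from 5.25 to 64.4 with peaks of 1057 and 480 bp. Mrpl21, at the start it shares with the helicase gene Ighmbp2, went from 27.7 to 77.2. The others were Mrpl38 (25.3 to 70.5), Mrpl16 (37.9 to 76.5), Mrps31 (54.5 to 84.5), Mrps10 (41.5 to 66.0) and Mrpl2, which was just inside the limit with a difference of 20.4. Just outside it were Mrps34 with 19.98 and Mrpl22 with 19.7. Of the 8, 6 carried a large subunit name and 2 a small subunit name. The compared peaks of Mrpl54 and Mrps31 overlapped by only 34.7% and 45.1% of the wider peak. When peaks were ranked by their −log10 p instead, Mrpl28, Mrpl16 and Mrps31 were still past the limit with differences of 53.5, 33.8 and 36.7. The other 5 were not, with 16.1 for Mrpl54, 12.7 for Mrpl21, 8.39 for Mrpl38, 13.5 for Mrps10 and -0.57 for Mrpl2. Under that ranking the 3 members were 4% of 75, near the 3.72% of coding genes.

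These 8 started low in the control list. Of the 9 members at or below percentile 50 in control, 7 had a rank at least 20 points higher after inactivation and all 9 were higher, whereas 41.8% of the 2134 protein-coding genes in that range had a rank at least 20 points higher. The median difference in that range was 38.6 for the members and 13.4 for the coding genes. Of the 50 members above percentile 80 in control, 20 were higher after inactivation (40%, median difference -0.39), against 23.3% of the 9032 coding genes in that range (median -3.71). The part of the control rank in the difference was not tested. The median GC content of the 1 kb around the start was 52.5% for the 8 and 56.1% for the 65 members within 20 points. Spearman's rho between GC content and the rank difference was -0.37 over the 75 members and -0.15 over 14016 coding genes, all read from the same 2 libraries. The part of GC content in the difference was not tested.

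A rank at least 20 points lower was found for 2 members (2.67%), against 12.3% of protein-coding genes. It was also found for 2 of 80 cytosolic ribosomal protein genes and 100 of 2192 coding genes with a divergent partner. In the mitochondrial lists it was 0 of 32 translation and assembly factors, 0 of 17 aminoacyl-tRNA synthetases and 1 of 7 ribosomal proteins with other symbols. A low count was thus not particular to the members. Mrps5, a small subunit protein close to the decoding site, went from percentile 78.8 to 52.6 and Mrps25 from 91.1 to 69.7. Both peaks were wider after inactivation, from 561 to 920 bp at Mrps5 and from 409 to 1587 bp at Mrps25. At Mrps25 the compared peaks overlapped by only 25.8% of the wider one. Fold and width are read from the same called peak and are not independent measures. The part of width in the fall of rank was not tested. Ranked by −log10 p, Mrps25 was still past the limit with -20.1 and Mrps5 was not, with -17.3. The next in order was Mrpl14, at the start it shares with Tmem63b, from 74.3 to 57.7.

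At least 1.5-fold wider after inactivation were 12 members (16.0%), against 10.5% of protein-coding genes, and at least 1.5-fold narrower were 6 (8%), against 17.2%. Wider and narrower were 10 and 13 of 80 cytosolic ribosomal protein genes, and 2 and 7 of 32 translation and assembly factors. They were 2 and 3 of 17 aminoacyl-tRNA synthetases, and 1 and 0 of 7 ribosomal proteins with other symbols. The members started from narrower control peaks (median 770 bp, against 1049 bp for protein-coding genes). The part of control width in these counts was not tested. At Mrps34, the peak of 226 bp that lay beside the start in control became a peak of 1913 bp over both Mrps34 and Eme2, a ratio of 8.46. Mrps25 followed with a ratio of 3.88 and Mrps31 with 2.22, from 260 to 577 bp. The others were Mrpl2, Mrpl3, Mrpl21, Mrpl24, Mrpl28, Mrpl43, Mrps5, Mrps15 and Mrps21. Narrower were Mrpl54 with a ratio of 0.45, Mrpl33 with 0.47 (1108 to 520 bp), Mrps33 with 0.53 (988 to 519 bp), Mrpl9, Mrpl20 and Mrps27. Rank and width did not go together at single genes: Mrpl54 went up in rank with a narrower peak, and Mrps33 was near the top of both lists with a narrower peak after inactivation.

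The letters of 9 short motifs were searched on both strands in the 250 bp before the representative start of every protein-coding gene. The members' windows were slightly richer in GC than those of coding genes (median 56.0%, against 54.8%), with an observed to expected CpG ratio of 0.74 against 0.51. ETS factors and NRF1, a regulator of nuclear genes for mitochondrial proteins, are known to bind promoters of this class. The ETS motif CCGGAAGT was in 8 members (10.4%), against 3.56% of all protein-coding genes and 5.19% of those with a peak in both lists. These were Mrpl27, Mrpl43, Mrpl48, Mrpl51, Mrps18c, Mrps22, Mrps27 and Mrps35. Of them 6 were among the 26 divergent members and 2 among the 51 others. For Mrps18c, Mrps27 and Mrpl43 the match lies between the starts printed above. For Mrpl27, Mrpl48 and Mrpl51 the window lies before another start than that of the divergent pair. The split by partner therefore does not place these matches in shared promoters.

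The NRF1 motif GCGCATGCG was in 4 members (5.19%; 1.77% and 2.63% of the same sets), namely Mrpl9, Mrpl10, Mrpl22 and Mrpl32. The stretch between Mrpl32, whose product is matured by a mitochondrial protease, and Psma2 held it at 3 positions, 2 of which overlap on opposite strands. The YY1 motif AAGATGGCG was in 2 members, Mrps11 and Mrpl36 (2.60%; 0.69% and 1.00%). The SP/KLF motif GGGCGGG was in 29 members (37.7%; 30.1% and 43.5%), more than all coding genes but fewer than those with a peak in both lists. The NF-Y motif AGCCAAT was in 5 members (6.49%; 8.10% and 9.54%), and Mrps12 held it at 2 positions in the stretch shared with Sars2.

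The E-box CACGTG was in 5 members (6.49%; 6.55% and 8.40%), the CREB motif TGACGTCA in 2 (2.60%; 1.95% and 2.61%) and the TATA box letters TATAAA in 7 (9.09%; 12.3% and 6.16%). The ERR motif TCAAGGTCA was in none of the 77 windows (0.26% and 0.24%). The E-box and the ETS motif adjoin without overlap in the 250 bp before Mrps18c. With so few matches per motif these shares describe the letters of the windows only, and a match is not evidence that a factor was bound.

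**Figure D5:**
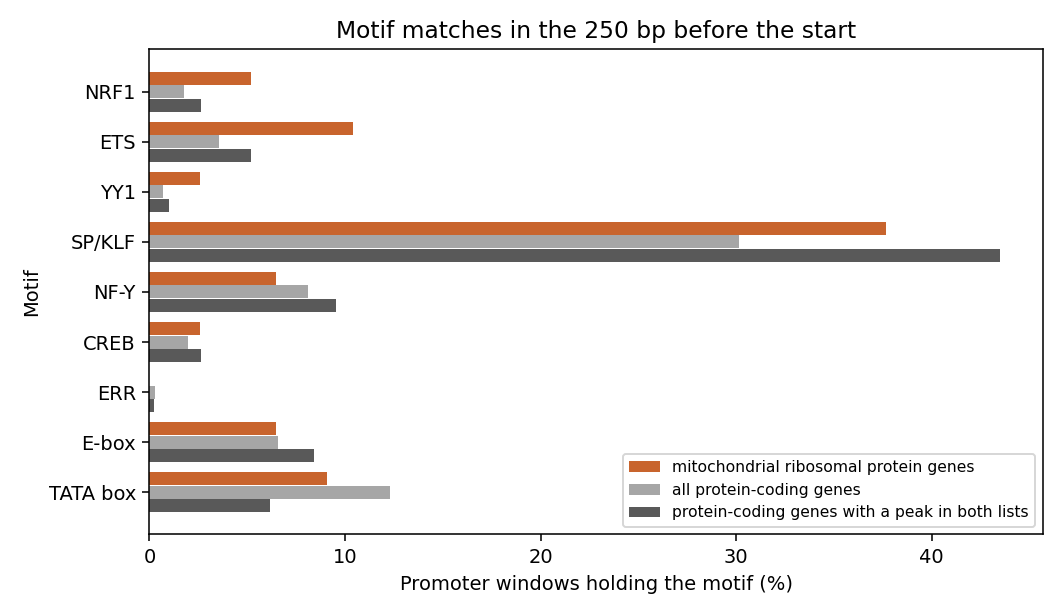
Percentage of promoter windows (250 bp before the representative start, either strand) that hold each motif, in the 77 mitochondrial ribosomal protein genes, all protein-coding genes and protein-coding genes with a peak in both lists. The ETS bar of the members is at 10.4% against 3.56% of all coding genes, and their SP/KLF bar, at 37.7%, lies between those of the 2 coding sets.

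The control list held 90445 peaks and the inactivated list 71282, covering 66.0 and 47.7 Mb. From the fold and p of the peaks, the depth of the inactivated library was estimated at 60.5% of that of control. Under a stricter limit of 5 on the −log10 q, 44 members kept a peak in control (57.1%; 35.5% of coding genes) and 68 after inactivation (88.3%; 46.5%), the larger number being in the shallower library. The same held for the lists as a whole, with 10757 peaks past this limit in control and 20474 after inactivation. A start site peak was found for 9 of 10 epithelial marker genes in control (lowest percentile 9.74, median 80.3) and 10 of 10 after inactivation (lowest 0.68, median 76.3), and for 4 and 3 of 7 markers of other cell types (control percentiles 10.7 to 74.3, inactivated 18.1 to 33.3), with Ptprc, Cd3e and Acta2 lacking a peak in both. The peak at the start of Taf4a, at percentile 74.7 and 58.7, does not report on the floxed exons and checks no label.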

How the data were processed

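Per the labels, reads were demultiplexed with bcl2fastq 2.17.1.14, and the authors mapped them to mm9 with Bowtie 1.0.0, kept reads with 1 mapping position, and ran MACS2 2.1.1 in broad mode on each of the libraries, with reads extended to a fixed length. Treatment of duplicate reads is not given in the sources used here. The deposited values were the peak score, the fold enrichment over that library's own background, and the −log10 p and −log10 q. The score is the −log10 q times 10, and none of these values is on a common scale between libraries. Read counts were not used here.

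Groups were taken from the genotype labels. Positions were converted to 1-based coordinates, and starts of all transcripts of protein-coding genes were taken from the GENCODE M1 annotation of the same build (NCBIM37). A peak within 1000 bp of any of these starts was assigned to the gene, and the peak of highest fold represented it. The representative start was that of the coding transcript with the longest coding sequence. Folds were turned into percentile ranks among all peaks of a list. A rank difference of 20 points and a width ratio of 1.5 were the limits for calls, chosen without a replicate check. Divergent starts and motifs were found with pandas 2.3.3, numpy 2.4.6 and pysam 0.24.0 under Python 3.11.15, and figures were drawn with matplotlib 3.10.9. The scripts were tested on simulated data. Relative depth was solved from the fold and p of peaks.

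The members and the lists of related genes, markers and motifs were chosen with earlier results of these data known. Members named singly were those without a peak and those at the extremes of rank, rank difference, width, width ratio and distance between starts, beside genes named for their roles. Of the listed assembly factors, Noa1 had no matching symbol in the annotation. Alternatives were another ranking value, other limits on distance, q, rank points and divergence, and another choice of peak.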

Additional observations from a re-analysis of the deposited data

How the results depend on the processing

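Of 62 alternative values of the comparisons, 49 moved little, 9 moved and 4 changed sign. Of 138 alternative values of single genes, 106 moved little and 32 moved. Of these 138, 3 changed sign, all from a difference near 0: Mrpl18 from -0.30 to 0.38 by −log10 p and to 0.056 among start site peaks, and Mrpl48 from -0.45 to 4.71 with starts of coding transcripts alone. With a −log10 q of at least 5, 44 members had a control peak. Ranked among start site peaks of coding genes only, the median percentile was 64.1 in control and 68.0 after inactivation, and the median rank difference was 4.29. For coding genes with a peak in both lists, these values were 63.8, 60.0 and -3.09. Ranked by −log10 p, 3 members were at least 20 points higher (4%, against 3.72% of coding genes) and 1 lower (1.33%, against 12.8%), so the larger share of higher members was no longer seen. At a limit of 10 points, 14 were higher and 10 lower, but the share over coding genes was not taken at that limit. When the compared peaks had to overlap by at least 50% of both, an alternative chosen after seeing the data, 6 were higher and 1 lower. The share over coding genes was not taken there either. Mrpl54, Mrps31 and Mrps25 dropped out, with overlaps of 34.7%, 45.1% and 25.8% of the wider peak. The median rank difference of 0.16 changed sign to -0.21 for peaks that cover the start and -0.058 for the peak nearest to a start. It was -1.03 for ranks by −log10 p and -0.058 with the overlap of 50%. The cause was not tested. No paired analysis was possible because each genotype was 1 library. Without replicates, differences between the lists hold for these 2 libraries only. The inactivated library was shallower, and peak presence, width and q depend on depth.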
